A study of Mus musculus with 6 samples.

Results

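The adenylyl cyclase isoforms are the enzymes that make cyclic AMP (cAMP) from ATP. Their 8 genes Adcy1, Adcy2, Adcy3, Adcy5, Adcy6, Adcy7, Adcy8 and Adcy9 were picked by symbol from the 49315 genes counted in mouse cerebral cortex, and all 8 passed the filter on low counts that left 17185 genes to test. The family was chosen with its values in the contrast between the shRNA groups already known, so those values are given as a description. Genes elsewhere in the cAMP pathway were tested, on lists that were also chosen with earlier results of these data known.

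RNA was sequenced from the cortex of wild type mice in 6 libraries. In 3 of them the mice carried an shRNA against Fabp7, the brain fatty acid-binding protein gene of astrocytes (shFabp7, vector AAV-PHP.eB-Gfap-GFP-shFABP7), and in the other 3 a scrambled shRNA (shScr, vector AAV-PHP.eB-Gfap-GFP-shScr). Both vectors were injected behind the eye at 21 days of age, and the Gfap promoter directs the shRNA to astrocytes, whereas the RNA came from all cells of the tissue. Mice of both groups received lipopolysaccharide (LPS, an inflammatory molecule of the outer membrane of bacteria) at 1 mg/kg weekly for 3 weeks, starting at 4 months, and the cortex was collected 24 h after the final dose. No group was without LPS, so the effect of LPS was not measured.

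Adenylyl cyclases of this family sit in the plasma membrane and are switched on by the stimulatory G protein alpha subunit. Several of them, but not all, are held back by the inhibitory one. The isoforms differ in what else they read: Adcy1, Adcy8 and, less directly, Adcy3 respond to calcium and calmodulin, Adcy2 and Adcy7 are boosted by G protein beta-gamma subunits, Adcy5 and Adcy6 are inhibited by calcium, and Adcy9 is little affected by the plant compound forskolin, which activates the others. In the forebrain cAMP acts through protein kinase A, the exchange factors Epac and cyclic nucleotide-gated channels, and is known for its part in synaptic plasticity.

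Counts per library ranged from 16914012 to 18991235. Fabp7 itself had 93, 41 and 66 reads in the shFabp7 libraries and 484, 285 and 290 reads in the shScr libraries, a fitted level of 20.2% of shScr; the edgeR adjusted p was 0.0704, so Fabp7 did not pass 0.05 there, and it passed in 6 of 16 alternatives. Markers of excitatory cortical neurons, the labelled tissue, were all present (10 of 10 tested), and their summed level was 2253 to 2664 CPM (reads relative to the TMM-adjusted depth of a library) in shFabp7 and 1555 to 2278 CPM in shScr libraries. Markers of neighbouring regions were present as well and differed between libraries. Striatal markers summed to 387 to 1178 CPM in shFabp7 and 438 to 1059 CPM in shScr libraries, and hippocampal markers to 246 to 290 CPM in shFabp7 and 284 to 446 CPM in shScr libraries. No marker on these lists was at 0 in all libraries. A regional score, the hippocampal, striatal, thalamic, hypothalamic, ependymal and choroid plexus markers minus those of excitatory cortical neurons in centred log2 CPM, was -0.48, -1.01 and -0.36 in shFabp7 libraries 1 to 3 and 1.68, -0.28 and 0.45 in shScr libraries 1 to 3, so the groups did not overlap on it. Whether the libraries came from different animals is not in the labels, and p-values therefore reflect only the spread between these libraries, which may be technical.

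Across the tested genes 20 (0.116%) passed in edgeR's quasi-likelihood test at an adjusted p of 0.05, 0.0582% in each direction, and 16.8% had an unadjusted p under 0.05. Leaving out 1 library moved that count, to 10 without shFabp7 library 1, 0 without shFabp7 library 2 or 3, 182 without shScr library 1 and 900 without shScr library 2. Of the 8 cyclase genes 1, Adcy8, was among the 20, and it was not among those that passed without shFabp7 library 1, 2 or 3 or without shScr library 3. The groups did not overlap for 3 of the 8 (Adcy8 lower, Adcy2 and Adcy9 higher in shFabp7), where 22.9% of all tested genes did not overlap. The log2 fold changes of the family, shFabp7 over shScr, lay above 0 for 4 genes and below 0 for 4, with a median of -0.0017, beside -0.0065 over all tested genes.

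**Figure D1:**
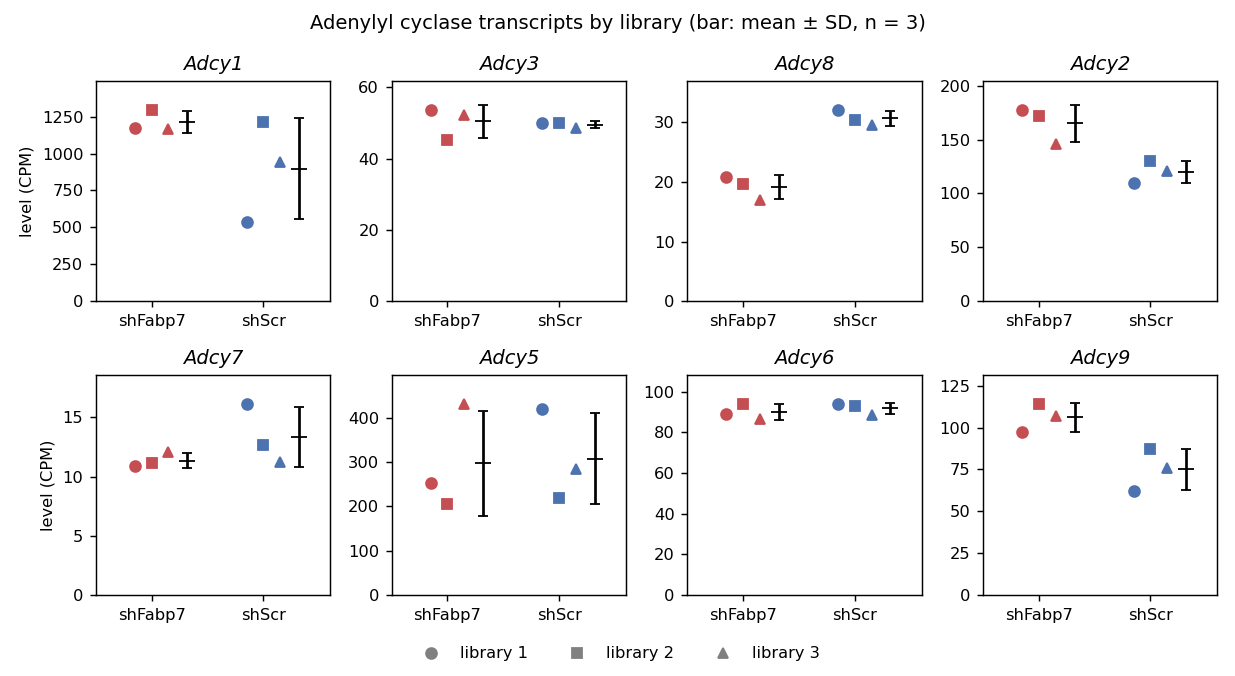
Level of each of the 8 adenylyl cyclase genes in CPM (vertical axes, from 0) in the 3 shFabp7 and 3 shScr libraries, 1 symbol per library number, with the mean ± SD of each group as a black bar. All 3 shFabp7 points of Adcy8 lie below the shScr points, those of Adcy2 and Adcy9 lie above, and those of the other 5 genes overlap.

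Of the isoforms that read calcium, Adcy8 was lower in shFabp7. Adcy8 encodes a calcium- and calmodulin-stimulated cyclase of neurons and spans 64699042 to 64922296 of chromosome 15 (minus strand, ENSMUSG00000022376, GRCm38). It had 348, 323 and 318 reads in shFabp7 libraries 1 to 3 and 590, 571 and 543 reads in shScr libraries 1 to 3, or 20.8, 19.6 and 17.0 CPM in shFabp7 and 32.1, 30.4 and 29.6 CPM in shScr. The highest shFabp7 library was below the lowest shScr library, and the libraries within a group lay close together. Means were 19.1 ± 1.96 CPM in shFabp7 and 30.7 ± 1.27 CPM in shScr (SD, n = 3 each), with a log2 fold change of -0.68 (SE 0.10), or 62.3% of the shScr level. In bulk tissue, fewer cells of a type and less RNA per cell cannot be told apart.

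Several marker lists of other cells had most members lower in shFabp7, as Adcy8 was. Thalamic and hypothalamic markers summed to 56.7 to 64.4 CPM in shFabp7 and 70.2 to 194 CPM in shScr libraries, with 6 of 7 tested members below 0 on the log2 fold change scale. Hippocampal markers, with the ranges above, had 7 of 9 below 0, and ependymal and choroid plexus markers, at 9.85 to 17.3 CPM in shFabp7 and 15.7 to 34.1 CPM in shScr, had 6 of 6. Microglia markers summed to 418 to 463 CPM in shFabp7 and 478 to 495 CPM in shScr libraries, with 8 of 9 below 0. The thalamic and hypothalamic sum and the microglia sum separated the groups as Adcy8 did. The former did so narrowly, at 64.4 against 70.2 CPM, and 1 of its 7 tested members (Slc17a6) was lower without overlap. The largest parts of its 194 CPM in shScr library 1 were Slc17a6 (53.4 CPM), Zic1 (40.0 CPM) and Avp (38.9 CPM). Of the 9 microglia markers 5 were lower in shFabp7 without overlap. The shScr libraries stood in the same order by the thalamic and hypothalamic sum (194, 86.5 and 70.2 CPM) as by Adcy8 (32.1, 30.4 and 29.6 CPM). The shFabp7 libraries did not, at 64.4, 56.7 and 60.7 CPM for that sum and 20.8, 19.6 and 17.0 CPM for Adcy8 in libraries 1 to 3. The hippocampal and ependymal sums overlapped between groups. However, the hippocampal sum came mostly from Zbtb20 and Wfs1. Of the 9 tested hippocampal markers, 3 (C1ql2, Prox1 and Zbtb20) were lower and 0 higher in shFabp7 without overlap between groups. Over all tested genes, 11.5% were lower and 11.4% higher in shFabp7 without overlap between groups. Of the 10 astrocyte markers, 4 were lower and 2 higher in this way. Among them Gfap, named here after its values were seen, had 134, 161 and 168 CPM in shFabp7 and 249, 240.2 and 312 CPM in shScr libraries, 57.8% of the shScr level (edgeR adjusted p = 0.0597). With the regional score as a covariate the log2 fold change of Adcy8 was -0.65 and did not pass the threshold in edgeR (adjusted p = 0.117), nor did it with sex as a covariate (-0.64, edgeR adjusted p = 0.102). Without shScr libraries 1 and 3 it was -0.67, with 1 shScr library left whose score of -0.28 was still above that of every shFabp7 library. The part of the microglia and astrocyte markers was not tested.

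Adcy1, the other strongly calcium-stimulated isoform and a gene of cortical and hippocampal neurons, spans 7063489 to 7178506 of chromosome 11 (plus strand, ENSMUSG00000020431). Its levels were 1174, 1296 and 1163 CPM in shFabp7 libraries 1 to 3 and 534, 1216 and 942 CPM in shScr libraries 1 to 3. The groups overlapped, since shScr library 2 was above all but the second shFabp7 library, and shScr library 1 stood far below the other 5 libraries. Means were 1211 ± 73.9 CPM in shFabp7 and 897 ± 343 CPM in shScr (SD, n = 3 each), and the log2 fold change was 0.43 (SE 0.31). Without shScr library 1 it was 0.17, without shScr libraries 1 and 3 it was -0.0070, and with the regional score it was -0.19. Library 1 of shScr was also the lowest in excitatory cortical neuron markers, with a summed level of 1555 CPM against 2131 to 2664 CPM in the other 5 libraries.

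Adcy3, known from olfactory neurons and the primary cilia of neurons, spans 4133103 to 4213525 of chromosome 12 (plus strand, ENSMUSG00000020654). It had 53.7, 45.2 and 52.3 CPM in shFabp7 and 50.01, 50.1 and 48.6 CPM in shScr libraries, with the shScr values inside the shFabp7 range. Its log2 fold change was 0.02 (SE 0.08), and the sign turned without shFabp7 library 1 (-0.022) or 3 (-0.0017). Adcy3 shares 1380 bases, 22.1% of its exon length, with Cenpo on the opposite strand. With the counting's strand setting unstated in the sources, reads in that stretch cannot be assigned to Adcy3 or Cenpo, and Cenpo had 295 reads over the 3 shFabp7 libraries and 272 over the 3 shScr libraries.

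Adcy2, a brain isoform boosted by G protein beta-gamma subunits, and Adcy9, a widely expressed isoform, had every shFabp7 value above every shScr value. Adcy2 spans 68620043 to 68999541 of chromosome 13 (minus strand, ENSMUSG00000021536) and had 178, 172 and 146 CPM in shFabp7 libraries 1 to 3 and 110, 130 and 121 CPM in shScr libraries 1 to 3. Means were 165 ± 17.1 CPM in shFabp7 and 120 ± 10.1 CPM in shScr (SD, n = 3 each), with a log2 fold change of 0.46 (SE 0.09). Adcy9 spans 4287529 to 4420498 of chromosome 16 (minus strand, ENSMUSG00000005580) and had 97.2, 114 and 107 CPM in shFabp7 libraries 1 to 3 and 62.4, 86.9 and 76.02 CPM in shScr libraries 1 to 3. Means were 106 ± 8.59 CPM in shFabp7 and 75.1 ± 12.3 CPM in shScr (SD, n = 3 each), with a log2 fold change of 0.50 (SE 0.12).

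For both genes the nearest shScr library was number 2 and the farthest number 1. Excitatory cortical neuron markers moved the same way (10 of 10 above 0), with the summed levels given above and the same highest and lowest shScr libraries. With the regional score as a covariate the log2 fold change was 0.29 for Adcy2 and 0.21 for Adcy9. Without shScr libraries 1 and 3 it was 0.34 for Adcy2 and 0.29 for Adcy9, with 1 shScr library left that is assumed to vary like the others. Neither gene passed the threshold in edgeR, and both did in DESeq2, where 4.25% of tested genes passed. They also passed in edgeR without shScr library 2, at log2 fold changes of 0.52 for Adcy2 and 0.62 for Adcy9.

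The windows upstream of these genes are shown because both stood higher in shFabp7 and because the cAMP response element, bound by the transcription factor CREB, is the best known DNA motif of the pathway. RefSeq promoter windows (GRCm38.p6) matched 6 of the 8 genes, in 9 windows, since Adcy3 and Adcy7 have several starts; Adcy6 and Adcy8 had no match. The 250 bases before each start were searched on both strands for the full element TGACGTCA and for its core letters TGACG, which the full element contains. Below, minus strand windows are written 5′ to 3′ toward the start, and capitals mark the core letters.
Adcy9 (chr16:4420499-4420748, minus strand): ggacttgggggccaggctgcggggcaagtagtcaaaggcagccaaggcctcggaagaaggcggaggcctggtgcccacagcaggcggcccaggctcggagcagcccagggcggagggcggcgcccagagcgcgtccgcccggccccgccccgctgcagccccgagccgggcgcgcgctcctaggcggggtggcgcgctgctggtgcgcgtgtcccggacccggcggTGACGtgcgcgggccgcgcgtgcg
Adcy2 (chr13:68999542-68999791, minus strand): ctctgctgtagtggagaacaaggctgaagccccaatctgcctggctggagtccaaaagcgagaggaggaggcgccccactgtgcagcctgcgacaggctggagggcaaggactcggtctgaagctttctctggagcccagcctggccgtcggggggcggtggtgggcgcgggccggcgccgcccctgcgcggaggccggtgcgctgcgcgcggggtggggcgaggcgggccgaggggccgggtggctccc

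The core letters stood once in the Adcy9 window, 24 bases before the start, and once in 1 of the 3 Adcy7 windows, 28 bases before its start. The other 7 windows, those of Adcy1, Adcy2, Adcy3 and Adcy5 included, did not hold them, and no window held the full element. Over all 32851 mouse windows of the same length, 17.8% held the core letters and 1.55% the full element. The windows were rich in G and C, at 78.8% for Adcy9 and 73.2% for Adcy2.

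Adcy7, the other isoform boosted by beta-gamma subunits and one known from leukocytes, was the least abundant of the 8. It spans 88272403 to 88329962 of chromosome 8 (plus strand, ENSMUSG00000031659) and had 182, 183 and 226 reads in shFabp7 and 297, 238 and 206 reads in shScr libraries, or 10.9, 11.1 and 12.1 CPM in shFabp7 and 16.2, 12.7 and 11.2 CPM in shScr. The groups overlapped through shScr library 3, and shScr library 1 was the highest. The log2 fold change was -0.23 (SE 0.14), -0.072 without shScr library 1 and 0.018 once the regional score was a covariate.

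Of the calcium-inhibited isoforms, Adcy5, the main isoform of the striatum, was spread widely between libraries of both groups, and Adcy6, a widely expressed isoform, was nearly even. Adcy5 spans 35154877 to 35305737 of chromosome 16 (plus strand, ENSMUSG00000022840) and had 253, 206 and 432 CPM in shFabp7 libraries 1 to 3 and 420, 219 and 285 CPM in shScr libraries 1 to 3. High and low libraries occurred in both groups, with means of 297 ± 119 CPM in shFabp7 and 308 ± 103 CPM in shScr (SD, n = 3 each) and a log2 fold change of -0.05 (SE 0.40). Its sign turned without shFabp7 library 1 (0.054) or 2 (0.15), without shScr library 1 (0.24), without shScr libraries 1 and 3 (0.44), and under the regional score (0.68). The 6 libraries stood in the same order by Adcy5 as by the summed level of 8 striatal markers, which was 470, 387 and 1178 CPM in shFabp7 libraries 1 to 3 and 1059, 438 and 614 CPM in shScr libraries 1 to 3. The striatum lies directly under the cortex, and the labels do not describe the dissection.

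**Figure D2:**
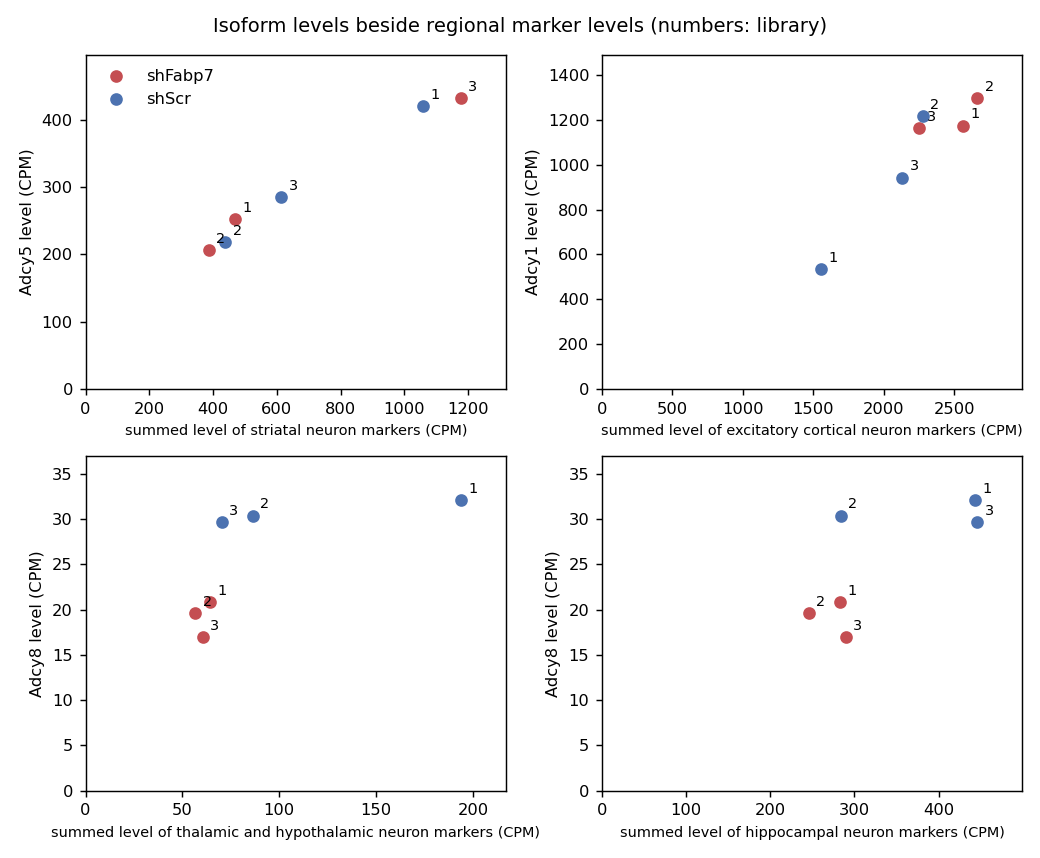
Level of Adcy5, Adcy1 and Adcy8 in CPM (vertical axes) against the summed level in CPM of striatal, excitatory cortical, thalamic and hypothalamic, and hippocampal neuron markers (horizontal axes), 1 point per library with its number. Adcy5 follows the striatal sum in all 6 libraries, Adcy1 is lowest where the excitatory sum is lowest (shScr library 1), and Adcy8 and the thalamic and hypothalamic sum both separate the groups, while the hippocampal sums overlap (shScr library 2, 284 CPM).

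Adcy6 spans 98589994 to 98607633 of chromosome 15 (minus strand, ENSMUSG00000022994). It had 89.3, 94.2 and 86.6 CPM in shFabp7 and 93.9, 93.0 and 88.5 CPM in shScr libraries, with the shScr values inside the shFabp7 range. Its log2 fold change was -0.03 (SE 0.06), and it was 1.79e-06, just above 0, without shFabp7 library 3. Adcy6 shares 601 bases of exon with Gm29331 on the opposite strand, a gene with 3 reads in shFabp7 and 6 in shScr libraries.

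**Figure D3:**
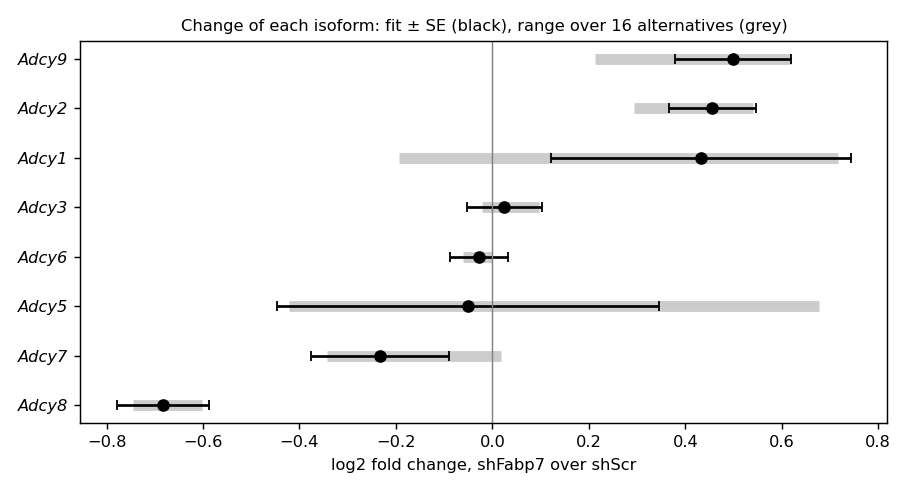
Log2 fold change of each isoform, shFabp7 over shScr (horizontal axis), as fitted by edgeR with its SE (black point and bar) and the lowest to highest value over 16 alternative settings (grey band). The bands of Adcy9, Adcy2 and Adcy8 do not reach 0, and those of the other 5 isoforms cross it.

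Levels were compared between isoforms on a scale of CPM per kilobase of exon, using the merged exon lengths in the deposited files, which count exons of all transcripts of a gene. This comparison was made within libraries and does not use the contrast between the shRNA groups. Adcy1 was the highest at 84.2 ± 22.4 CPM per kb (SD, n = 6 libraries, as for the other isoforms in this order). Adcy5 followed at 43.2 ± 14.2, Adcy2 at 33.9 ± 6.54, Adcy9 at 17.4 ± 3.75 and Adcy6 at 15.1 ± 0.534 CPM per kb. Adcy3 stood at 8.0 ± 0.471, Adcy8 at 4.95 ± 1.29 and Adcy7 at 1.84 ± 0.294 CPM per kb.

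Of the 7 pairs of neighbours in that order, 4 had the same order in all 6 libraries: Adcy2 above Adcy9, Adcy6 above Adcy3, Adcy3 above Adcy8 and Adcy8 above Adcy7. Each of these had p = 0.0313 in an exact two-sided sign-flip permutation test over the 6 libraries, the smallest this design allows, and an adjusted p of 0.0547 over the 7 pairs. The mean differences were 0.96, 0.92, 0.73 and 1.40 on the log2 scale for these 4 pairs in turn. Adcy1 was above Adcy5 in 5 of 6 libraries (exact permutation p = 0.0625, adjusted 0.0875), the exception being shScr library 1 with 42.7 CPM per kb of Adcy1 and 59.9 of Adcy5. Adcy5 and Adcy2 (4 of 6 libraries, exact permutation p = 0.281, adjusted 0.281) and Adcy9 and Adcy6 (4 of 6, exact permutation p = 0.25, adjusted 0.281) did not differ beyond their spread. Adcy9 had 18.7, 22.0 and 20.6 CPM per kb in shFabp7 and 12.0002, 16.7 and 14.6 in shScr libraries, beside 14.8, 15.7 and 14.4 for Adcy6 in shFabp7 and 15.6, 15.5 and 14.7 in shScr. Adcy9 was thus above Adcy6 in every shFabp7 library and in 1 of 3 shScr libraries.

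**Figure D4:**
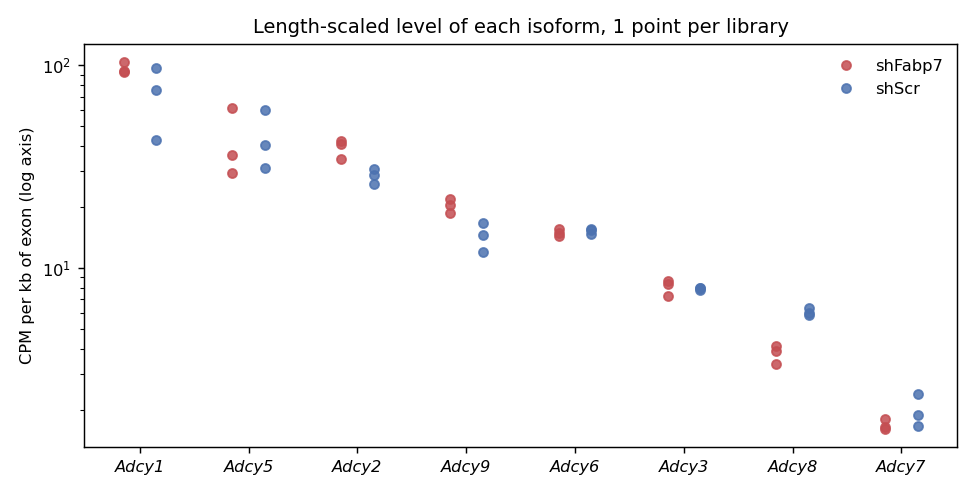
Length-scaled level of each isoform in CPM per kilobase of exon (vertical log axis), 1 point per library, shFabp7 left of shScr at each isoform, ordered from the highest mean (Adcy1, 84.2) to the lowest (Adcy7, 1.84). Points of Adcy6 and Adcy3 lie tightly together, and those of Adcy1 and Adcy5 are spread.

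As a share of the summed length-scaled level of the 8 genes, Adcy1 made up 42.6, 46.2 and 39.1% in shFabp7 libraries and 24.6, 46.8 and 39.8% in shScr libraries. The share of Adcy8 was 1.88, 1.74 and 1.42% in shFabp7 and 3.69, 2.91 and 3.11% in shScr libraries, and the shFabp7 values were all the lower. The share of Adcy9 was 8.51, 9.81 and 8.66% in shFabp7 and 6.93, 8.07 and 7.73% in shScr libraries, with all shFabp7 values the higher. The shares of Adcy6, at 6.06 to 6.98% in shFabp7 and 7.45 to 9.02% in shScr, and of Adcy7, at 0.735 to 0.754% in shFabp7 and 0.882 to 1.39% in shScr, were lower without overlap, and those of Adcy1, Adcy2, Adcy3 and Adcy5 overlapped. The sum that shares are taken of was itself higher in every shFabp7 library, which lowers the share of a gene whose level is even. It was 220, 224 and 238 CPM per kb in shFabp7 and 173, 207 and 189 CPM per kb in shScr libraries, most of it from Adcy1, Adcy5 and Adcy2. Per 100 reads of Adcy2, a library held 11.7, 11.4 and 11.7 reads of Adcy8 in shFabp7 and 29.2, 23.4 and 24.5 in shScr, a ratio that needs no scaling between libraries. As Adcy8 was lower and Adcy2 higher in shFabp7, a gap in this ratio was set beforehand and adds no support for either gene.

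The genes whose profile lay closest to that of Adcy8 over the 6 libraries were Crtac1, Serpina3n, Hyal2, 5330413P13Rik and Arid5a, of 15671 genes with a mean of at least 1 CPM. Closeness was the root mean square difference of centred log2 CPM, which was 0.080 for Crtac1, 0.081 for Serpina3n, 0.084 for Hyal2, 0.093 for 5330413P13Rik and 0.094 for Arid5a. Among the other cyclases the closest was Adcy7 at 0.29 and the farthest Adcy1 at 0.71. Crtac1 had 48.6, 48.7 and 43.4 CPM in shFabp7 and 89.7, 77.8 and 78.8 CPM in shScr libraries. Hyal2, a hyaluronidase gene, had 7.23, 7.54 and 6.51 CPM in shFabp7 and 10.6, 10.7 and 10.1 CPM in shScr libraries. All 5 were lower in every shFabp7 library than in any shScr library, which the choice by likeness to Adcy8 sets. Reads of Serpina3n can be shared with its near-identical neighbours, so its value is uncertain.

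Of 160 other genes of the cAMP pathway on 11 lists, 157 were tested, and 2 passed over all genes tested, both lower in shFabp7 and both CREB targets: Fos and Sik1. The lists were chosen with earlier results of these data known, so these counts are no independent test. Those 2 of 157 stand beside 0.116% of all tested genes, and the number was 0 without any 1 of the 3 shFabp7 libraries, 8 without shScr library 1, 16 without shScr library 2, 1 without shScr library 3 and 9 without shScr libraries 1 and 3. DESeq2 called 19 of the 156 with an adjusted p there, 7 higher and 12 lower, beside 4.25% of all genes it tested. That share, and the 16.8% of all tested genes at an unadjusted edgeR p under 0.05, also stand beside the counts per list below. Fos, an immediate-early transcription factor, had 10.5, 9.18 and 9.66 CPM in shFabp7 and 22.1, 34.7 and 24.01 CPM in shScr libraries, a log2 fold change of -1.46 (SE 0.17) (edgeR adjusted p = 0.0382). Sik1, a salt-inducible kinase that holds back the CREB coactivators, had 13.03, 11.5 and 12.9 CPM in shFabp7 and 24.2, 21.8 and 18.9 CPM in shScr libraries, a log2 fold change of -0.79 (SE 0.12) (edgeR adjusted p = 0.0423). In both genes the groups stood well apart. The CREB list also holds coactivators and further CREB targets. Of its 25 members 2 passed in edgeR (8 at an unadjusted p under 0.05), and in DESeq2 5 were lower and 0 higher. Without overlap between groups, 6 were lower and 2 higher in shFabp7, beside 11.5% and 11.4% of all tested genes. The list had 20 members below 0, beside 8854 of all 17185 tested genes, and a median of -0.23. Its coactivator Crtc1 had 0.18 and its abundant target Vgf 0.15.

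**Figure D5:**
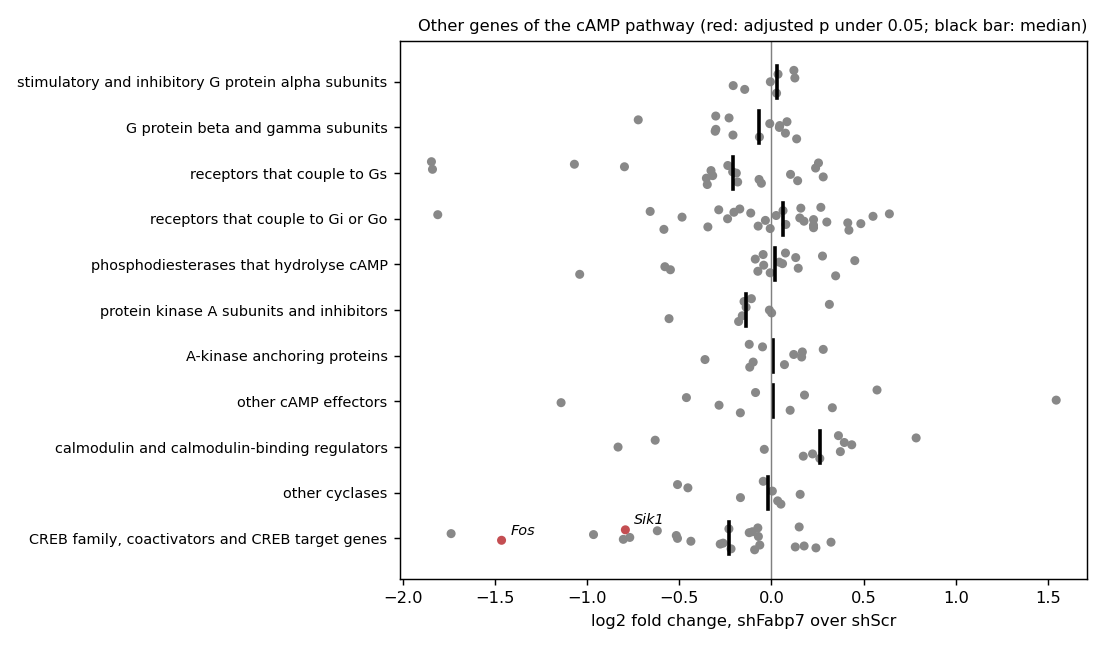
Log2 fold change, shFabp7 over shScr (horizontal axis), of each tested gene on 11 lists of the cAMP pathway (rows), with the median of each list as a black bar. The 2 genes past an adjusted p of 0.05, Fos and Sik1, are in red on the CREB list, and the calmodulin list has the highest median (0.26).

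Upstream of the cyclases, the G protein alpha subunits had 0 of 7 members past the threshold (edgeR, 1 at an unadjusted p under 0.05; DESeq2, 0) and a median log2 fold change of 0.03. Gnas, the stimulatory subunit, had 602, 607 and 534 CPM in shFabp7 and 578, 551 and 572 CPM in shScr libraries, with overlapping groups. Gnao1, the abundant neuronal Go subunit, had a log2 fold change of 0.13, and the inhibitory subunits Gnai2 and Gnai3 had -0.15 and -0.21. Of 13 beta and gamma subunits 0 passed in edgeR (3 at an unadjusted p under 0.05) and 1 in DESeq2, with a median of -0.07. Gng4 had 36.9, 28.1 and 30.9 CPM in shFabp7 and 63.5, 49.2 and 45.6 CPM in shScr libraries, groups that did not overlap, and a log2 fold change of -0.72 (edgeR adjusted p = 0.0909). Gnb1, the most abundant beta subunit, had 0.14, Gnb2 had -0.07 and Gng10 had -0.31.

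Of 19 tested receptors that couple to the stimulatory G protein, 0 passed in edgeR (5 at an unadjusted p under 0.05) and 3 were lower in DESeq2, with 14 below 0 and a median of -0.21. Adcyap1r1, the receptor of the neuropeptide PACAP, had 208, 188 and 205 CPM in shFabp7 and 290, 230 and 246 CPM in shScr libraries, a log2 fold change of -0.35 (edgeR adjusted p = 0.122). Htr7, a serotonin receptor, had 6.04, 7.66 and 6.51 CPM in shFabp7 and 13.4, 11.6 and 10.04 CPM in shScr libraries, a log2 fold change of -0.80 (edgeR adjusted p = 0.0698). In both receptors every shFabp7 library was below every shScr library. Vipr1, a receptor of vasoactive intestinal peptide, had a log2 fold change of 0.25 with overlapping groups. Of 29 tested receptors that couple to Gi or Go, 0 passed in edgeR (7 at an unadjusted p under 0.05), and in DESeq2 2 were higher and 1 lower, with a median of 0.06. Gabbr2, a subunit of the GABA-B receptor, had 404, 417 and 375 CPM in shFabp7 and 242, 295 and 318 CPM in shScr libraries (log2 fold change 0.48, edgeR adjusted p = 0.0779). Its partner subunit Gabbr1 had 0.08, and Adra2a, a noradrenaline receptor, had -0.58.

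Downstream, 0 of 16 phosphodiesterases that break down cAMP passed in edgeR (2 at an unadjusted p under 0.05) and 1 was lower in DESeq2, with a median of 0.02. The striatal phosphodiesterase Pde10a had 171, 126 and 432 CPM in shFabp7 and 272, 129 and 172 CPM in shScr libraries, high in shFabp7 library 3 and shScr library 1 as Adcy5 was, and the log2 fold changes of Pde1b and Pde3a were -0.07 and -0.58. Pde11a had 4.12, 2.92 and 3.79 CPM in shFabp7 and 8.49, 4.42 and 9.44 CPM in shScr libraries, a log2 fold change of -1.04 (edgeR adjusted p = 0.148). Of 9 subunits and inhibitors of protein kinase A, 0 passed in edgeR (3 at an unadjusted p under 0.05) and 1 was higher in DESeq2, with a median of -0.14. Prkar1b, a neuronal regulatory subunit, had 827, 894 and 740 CPM in shFabp7 and 639, 685 and 656 CPM in shScr libraries, a log2 fold change of 0.31, beside -0.14 for the related subunit gene Prkar1a and -0.56 for the inhibitor gene Pkib. The anchoring proteins that hold the kinase in place had 0 of 10 past the threshold in edgeR (1 at an unadjusted p under 0.05) and 0 in DESeq2, with a median of 0.01 and values of 0.17 for Akap6, -0.10 for Akap11 and -0.36 for Akap12.

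Of 10 other cAMP effectors 0 passed in edgeR (5 at an unadjusted p under 0.05) and 1 was higher in DESeq2, with a median of 0.0073. Rapgef4, which encodes the neuronal exchange factor Epac2, had 779, 887 and 783 CPM in shFabp7 and 424, 635 and 588 CPM in shScr libraries, a log2 fold change of 0.57 (edgeR adjusted p = 0.146). Hcn2, a cyclic nucleotide-gated channel, had 0.33, and Rapgef2, another exchange factor gene, had 0.18. Calmodulin and its binding partners, which feed calcium signals to Adcy1 and Adcy8, had 0 of 11 past the threshold in edgeR (8 at an unadjusted p under 0.05), 3 higher and 1 lower in DESeq2, and a median of 0.26. The groups did not overlap, with shFabp7 higher, for 8 of the 11, where 11.4% of all tested genes did so. Camk4 and Camk2a, calmodulin-dependent kinases of neurons, had log2 fold changes of 0.40 and 0.37. Excitatory cortical neuron markers moved with this list (10 of 10 above 0, median 0.44), and their part in it was not tested.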

How the data were processed

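Each deposited file gives unnormalized counts of reads for every gene and its merged exon length; per the file headers they were made with featureCounts. The build GRCm39 is listed in the submitters' processing notes, as are STAR 2.5.2b, Trimmomatic 0.36, DESeq2 and Subread 1.5.2, without their roles. Gene positions were nonetheless those of GRCm38: of 49056 gene IDs found in GENCODE M21, 44823 (91.4%) had the same chromosome, start and end, and so did 5 of the 8 cyclase genes. Coordinates are as the files give them. Symbols were matched for 48970 of 49315 genes. Per the labels' protocols, 0.5 µg of total RNA went into each stranded mRNA library.

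Groups came from the sample titles. Genes were filtered with filterByExpr, scaled by TMM and tested with edgeR 4.0.16 (R 4.3.3; quasi-likelihood, robust, group alone), adjusted by Benjamini-Hochberg over 17185 genes at 0.05. Each SE is the log2 fold change over the square root of F. Levels are CPM on TMM-scaled library sizes, mean ± SD of 3. Log2 CPM used a prior count of 2. Alternatives were DESeq2 1.42.0, upper-quartile or RLE scaling, no filter, 1 CPM in 3 libraries, limma-voom (limma 3.58.1), the replicate number as a block, a regional score or sex (read from the counts) as covariates, each library left out, and shScr libraries 1 and 3 left out together. Scripts were tested on simulated counts. No library was a copy of another (chi-square per degree of freedom 5.84 to 32.7).

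The members, lists and tests were chosen with earlier results of these data known. For each pathway list the naming rule took the members past the threshold (up to 4), the 2 with the highest mean and the 2 with the lowest unadjusted p. It also took the 8 cyclases, Fabp7 and the 5 genes closest to Adcy8. Of the genes so chosen, 1 is not reported here.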

Additional observations from a re-analysis of the deposited data

How the results depend on the processing

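Under 16 alternatives the log2 fold change of Adcy8 ranged from -0.75 to -0.60 and passed the threshold in 10; it did not pass with the regional score, with sex as a covariate, or without shFabp7 library 1, 2, 3 or shScr library 3. Adcy2 ranged from 0.29 to 0.54 and Adcy9 from 0.21 to 0.62, each passing in 4 and keeping its sign in all 16. Those 4 were DESeq2, no filter, the replicate block and shScr library 2 left out, which called 703, 1617, 629 and 900 genes in turn. The family was chosen with this contrast known, so the passes of Adcy8, Adcy2 and Adcy9 are a description. Signs turned with the regional score for Adcy1 (-0.19), Adcy7 (0.018) and Adcy5 (0.68), without shScr libraries 1 and 3 for Adcy1 (-0.0070) and Adcy5 (0.44), and for some libraries left out. With 1 library left out Adcy5 ranged from -0.42 to 0.24, Adcy3 from -0.022 to 0.097 and Adcy6 from -0.061 to 1.79e-06.

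The number of genes called was 703 in DESeq2, 1617 without a filter, 11 with the regional score, 7 with sex, 120 without shScr libraries 1 and 3, and 0 to 900 with 1 library left out. For the pathway genes it was 19, 27, 1, 0, 9 and 0 to 16 in the same settings, in place of 2. With the replicate number as a block 629 genes and 20 pathway genes passed, and Adcy2 and Adcy9 did too. Deviations of same-numbered libraries correlated by 0.081, 0.15 and 0.057, and those of differently numbered libraries by -0.18 to 0.099. The best match of shFabp7 libraries 1 and 2 had the same number, and that of shFabp7 library 3 was shScr library 1 (0.099). Whether the numbers pair the libraries was not settled, and the main fit used group alone. The cause of the changes in the numbers of genes called was not tested. Without division by length 6 of the 8 isoforms kept their rank, Adcy6 and Adcy9 changing places. The lowest counts, those of Adcy7 and Adcy8, carry the largest counting error.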

Other observations

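Adcy4 and Adcy10, the other mammalian adenylyl cyclase genes, were low in this tissue. Adcy4, a membrane isoform known from blood vessels, had 9.32, 7.72 and 8.59 CPM in shFabp7 libraries and 6.75, 9.68 and 8.62 CPM in shScr libraries, with overlapping groups and a log2 fold change of 0.03. Per kilobase of exon its level was 2.21 to 2.66 CPM in shFabp7 and 1.93 to 2.77 CPM in shScr libraries. That level was above that of Adcy7 in every library except shScr library 1 (1.93 for Adcy4 and 2.40 CPM per kb for Adcy7). Adcy10, the soluble isoform stimulated by bicarbonate, had 1.61, 1.76 and 1.49 CPM in shFabp7 and 1.25, 2.07 and 1.36 CPM in shScr libraries. The guanylyl cyclase subunit Gucy1b1, a part of the nitric oxide receptor, had 174, 159 and 171 CPM in shFabp7 and 169, 176 and 157 CPM in shScr libraries and a log2 fold change of 0.0046. Of the 8 genes on the list of other cyclases 0 passed in edgeR (1 at an unadjusted p under 0.05) and 0 in DESeq2. Gucy1a1, the partner subunit of Gucy1b1, had a log2 fold change of -0.17, and the membrane guanylyl cyclases Gucy2e and Npr1 had -0.45 and -0.51.

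Of the remaining cell types, astrocyte markers summed to 4979 to 5489 CPM in shFabp7 and 4847 to 5266 CPM in shScr libraries. This sum was mostly of Slc1a2 and is therefore no summary of the list. Of its members, 6 of 10 did not overlap between groups (2 higher, 4 lower in shFabp7), beside 22.9% of all tested genes. Oligodendrocyte markers summed to 4040 to 4829 CPM in shFabp7 and 3683 to 4729 CPM in shScr libraries, inhibitory neuron markers to 798 to 883 CPM in shFabp7 and 780 to 1131 CPM in shScr libraries, and endothelial markers to 337 to 348 CPM in shFabp7 and 279 to 369 CPM in shScr libraries. The groups overlapped in all 4 sums.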
